A study of Mus musculus with 15 samples.

Results

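Histone marks were examined at 8 genes of lipid and cholesterol synthesis, *Srebf1*, *Srebf2*, *Fasn*, *Acaca*, *Acacb*, *Scd1*, *Scd2* and *Insig1*, chosen by name from 21765 protein-coding genes with a known start site. A peak was assigned to a gene when it overlapped the 1 kb either side of one of its start sites, or its gene body with 20 kb either side (GENCODE vM21, GRCm38). Pancreatic islets came from CBA males that entered the diets at 10 weeks of age. Time on the diet was 9 weeks by the methods text and 10 weeks by the results text, which puts the mice at 20 weeks of age. RD mice ate standard chow, HFD mice a high-fat diet, and HFD-O304 mice the high-fat diet with 0.8 mg of O304 per g, a compound described as an activator of AMP-activated protein kinase (AMPK). Active promoters and enhancers carry acetylation of histone H3 at lysine 27 (H3K27Ac), and chromatin silenced by Polycomb carries its trimethylation (H3K27Me3). Each immunoprecipitation used about 600 pooled islets. Of 15 samples 12 were immunoprecipitates, 2 per mark and diet, and 3 were input samples, not analysed here. The authors merged the 2 replicates before calling peaks, so that each mark and diet had 1 list of peaks, and no test between diets was possible for want of replicate error.

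Cells make fatty acids from acetyl-CoA, which the acetyl-CoA carboxylases (*Acaca*, *Acacb*) convert to malonyl-CoA, fatty acid synthase (*Fasn*) elongates to palmitate and the stearoyl-CoA desaturases (*Scd1*, *Scd2*) make monounsaturated. The transcription factors SREBP-1 (*Srebf1*) and SREBP-2 (*Srebf2*) are made as membrane proteins, and Insig1 holds them in the endoplasmic reticulum together with Scap when sterols are plentiful. When sterols run low they are carried to the Golgi and cleaved, and their released parts bind sterol regulatory elements near the genes of fatty acid synthesis (mainly SREBP-1) and cholesterol synthesis (mainly SREBP-2). AMPK phosphorylates and inhibits the acetyl-CoA carboxylases.

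The H3K27Ac lists rested on 83773042 to 95218072 fragments kept after removal of duplicates, and the H3K27Me3 lists on 54166902 to 74870300. The deepest list was HFD for H3K27Ac and RD for H3K27Me3. An H3K27Ac peak lay at a start site of 11, 12 and 11 of 16 endocrine markers in RD, HFD and HFD-O304. *Ins2*, *Pdx1* and *Mafa* were among them in every diet. *Ins1* had a peak in RD and HFD and none in HFD-O304, and *Neurod1* in HFD and HFD-O304 and none in RD. The defining hormone genes *Iapp*, *Gcg*, *Sst* and *Ppy* had no such peak in any diet. For exocrine cells the counts were 2, 2 and 3 of 9 markers, and for adipocytes 3, 3 and 2 of 8. Of the adipocyte markers *Pparg* and *Cebpa* had a peak in every diet and *Lipe* in RD and HFD. The adipocyte markers *Adipoq*, *Plin1*, *Cidec*, *Fabp4* and *Lep* had none. For immune (6 markers) and endothelial cells (5 markers) the counts were 0. The shares of all genes with an H3K27Ac peak at a start site were 47.0%, 52.9% and 52.3% in RD, HFD and HFD-O304. No difference between the marker lists and these shares was tested. A peak in a mixed tissue cannot tell more cells with a mark from more mark per cell.

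The stretches of DNA just upstream of start sites are shown first, since the results turn on whether these were acetylated. RefSeq promoters (GRCm38.p6) were at hand for 6 of the 8 genes, at 8 start sites, and not for *Scd1* and *Scd2*. The following 250 bases lie immediately before the RefSeq start site and are written 5′ to 3′ along the gene. Motif distances are from these RefSeq starts, while the peak results below use GENCODE starts, which can differ. For *Insig1* the RefSeq start is 28071412 and the GENCODE start 28071363. For *Srebf2* the RefSeq start is 82147269, and GENCODE starts lie at 82147181 and 82147204 among others. GENCODE gives 2 start sites for *Srebf1* where RefSeq gives 3. Capitals mark motifs on either strand, namely the CCAAT box CCAAT, the GC box GGGCGG, the E-box CACGTG and a shortened sterol regulatory element TCACNCCA, or their reverse complements. The first 4 sequences, of the sterol factors, fatty acid synthase and Insig1, lay within 1 kb of H3K27Ac peaks in every diet. The last 2, a start site in each acetyl-CoA carboxylase gene, lay within 1 kb of no peak of either mark.
Srebf1, chr11:60210472-60210721, minus strand: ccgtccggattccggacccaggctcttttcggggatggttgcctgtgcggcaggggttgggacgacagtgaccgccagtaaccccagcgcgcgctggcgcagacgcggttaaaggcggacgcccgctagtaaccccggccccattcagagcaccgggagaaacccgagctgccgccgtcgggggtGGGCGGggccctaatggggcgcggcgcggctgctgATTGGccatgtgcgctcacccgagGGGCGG
Srebf2, chr15:82147019-82147268, plus strand: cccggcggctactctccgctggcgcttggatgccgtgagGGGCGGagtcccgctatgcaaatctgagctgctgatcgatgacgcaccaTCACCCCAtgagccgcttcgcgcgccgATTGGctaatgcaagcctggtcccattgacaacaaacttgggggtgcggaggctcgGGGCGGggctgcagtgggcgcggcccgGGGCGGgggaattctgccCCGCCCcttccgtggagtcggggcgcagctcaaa
Fasn, chr11:120824548-120824797, minus strand: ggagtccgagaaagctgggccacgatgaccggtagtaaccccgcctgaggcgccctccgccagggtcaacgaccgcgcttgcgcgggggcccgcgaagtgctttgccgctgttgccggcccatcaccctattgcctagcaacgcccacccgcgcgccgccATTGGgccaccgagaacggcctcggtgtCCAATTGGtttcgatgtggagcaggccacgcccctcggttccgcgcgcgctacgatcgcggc
Insig1, chr5:28071162-28071411, plus strand: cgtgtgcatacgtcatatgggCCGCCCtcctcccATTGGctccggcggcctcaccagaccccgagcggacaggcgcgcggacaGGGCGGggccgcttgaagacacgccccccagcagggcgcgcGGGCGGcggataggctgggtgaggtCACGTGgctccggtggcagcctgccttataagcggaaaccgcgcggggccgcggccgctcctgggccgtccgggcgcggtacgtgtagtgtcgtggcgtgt
Acaca, chr11:84195188-84195437, plus strand: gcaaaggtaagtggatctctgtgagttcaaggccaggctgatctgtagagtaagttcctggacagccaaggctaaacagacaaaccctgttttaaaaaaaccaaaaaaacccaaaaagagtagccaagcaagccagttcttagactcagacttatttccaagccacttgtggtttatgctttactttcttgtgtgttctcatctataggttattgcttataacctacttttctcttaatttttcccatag
Acacb, chr5:114165268-114165517, plus strand: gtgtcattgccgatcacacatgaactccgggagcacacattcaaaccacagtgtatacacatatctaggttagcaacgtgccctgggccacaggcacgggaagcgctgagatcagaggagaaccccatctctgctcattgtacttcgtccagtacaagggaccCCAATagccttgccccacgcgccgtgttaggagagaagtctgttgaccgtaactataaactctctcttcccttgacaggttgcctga

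The full sterol regulatory element TCACNCCAC was in none of the 8 sequences and in 1.05% of all 32851 promoters in the table. TCACNCCA, which the full element contains and which was added after the sequences had been read, occurred in 1 of them, 162 bases before the *Srebf2* start, and in 3.67% of all promoters. The E-box occurred once, 101 bases before the *Insig1* start (6.02% of all promoters). CCAAT was found at *Srebf1*, *Srebf2*, *Fasn*, *Acacb* and *Insig1* (33.8% of all promoters). *Fasn* held 3 copies, 2 of which overlap on opposite strands as CCAATTGG. GC boxes occurred at *Srebf1*, *Srebf2* and *Insig1* (32.7% of all promoters). The shares count single promoters, whereas *Srebf1* had several sequences. Of these, the one before 60220627 held no CCAAT and the one before 60222581 no GC box. A match is a run of letters and not a measured binding site. The observed to expected ratio of CpG dinucleotides was 1.11 at *Fasn*, 1.03 at *Insig1*, 0.97 at the printed *Srebf1* sequence and 0.88 at *Srebf2*, where the median of all promoters was 0.37. The other 2 *Srebf1* sequences, not printed here but also within 1 kb of H3K27Ac peaks in every diet, had 0.87 and 0.36. The ratio was 0.59 at *Acacb*, above the lowest of the acetylated sequences, and the *Acaca* sequence held no CpG. GC content was 54.4% to 72.8% in the 6 acetylated sequences, 52.4% at *Acacb* and 39.2% at *Acaca*.

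H3K27Ac was called at a start site of 5 of the 8 genes in RD islets, 6 in HFD islets and 6 in HFD-O304 islets. Among all genes the shares were 47.0%, 52.9% and 52.3%. *Srebf1*, *Srebf2*, *Fasn*, *Acaca* and *Insig1* carried the mark in all 3 diets, *Scd2* in HFD and HFD-O304, and *Acacb* and *Scd1* in none. H3K27Me3 was called at 0 genes in RD and at 1 in each of HFD and HFD-O304, *Scd1* in both, where the shares of all genes were 7.54%, 9.45% and 9.97%. No gene of the 8 had both marks at its start sites. No enrichment over the shares of all genes was tested with so few genes.

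The strength of a peak is given as a ratio, the mean pileup over the peak in fragments per base divided by the pileup that the fragments of that list would give if spread evenly over the genome. Brackets hold 95% Poisson intervals for the estimated number of fragments in the peak, which ran from 91.4 to 640.2 over the strongest start-site peaks of the genes. They cover counting error only, and the fragments are not all independent molecules. The lowest ratio in a list was 2.40 on RD, 2.26 on HFD and 2.37 on HFD-O304 in the H3K27Ac lists, and 2.74, 3.10 and 2.97 in the H3K27Me3 lists. Weak peaks could therefore be called in one list and not in another at an equal ratio.

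**Figure D1:**
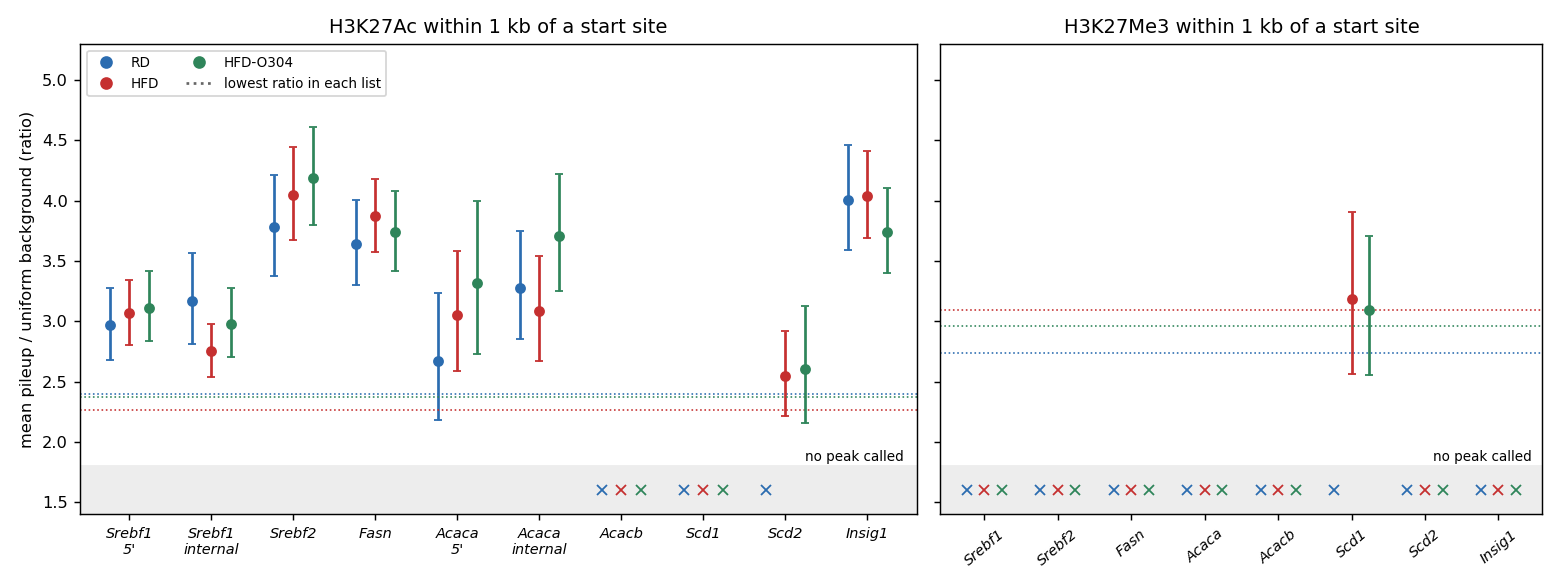
Ratio of mean pileup to the uniform background (vertical axis) of peaks within 1 kb of a start site, by gene and diet, for H3K27Ac (left) and H3K27Me3 (right), with 95% counting intervals as bars and crosses where no peak was called. *Srebf1* and *Acaca* have an H3K27Ac peak at each of 2 places, *Srebf2*, *Fasn* and *Insig1* lie highest within each diet, and *Scd2* lies just above the dotted lines that mark the lowest ratio of each list.

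Of the regulators, *Srebf2* (chr15:82147181-82205379, plus strand), which encodes SREBP-2, had with *Insig1* the highest ratios of the 8 genes. Its 3 start sites lay inside 1 H3K27Ac peak, whose ratio was 3.78 (3.38 to 4.21) on RD, 4.05 (3.68 to 4.45) on HFD and 4.19 (3.80 to 4.61) on HFD-O304. The 3 intervals overlapped. These values stood at percentiles 83.1, 85.2 and 89.2 of all start-site peaks of their lists. The peak was 1919 bp wide on RD, 2107 bp on HFD and 2176 bp on HFD-O304. The *Srebf2* promoter printed above lies within it in every diet.

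*Insig1* (chr5:28071363-28078662, plus strand) encodes the protein that retains the SREBPs. At its single start site the ratio was 4.01 (3.59 to 4.46) on RD, 4.04 (3.69 to 4.41) on HFD and 3.74 (3.40 to 4.11) on HFD-O304. It had the lowest value in HFD-O304, by less than the counting intervals. Its percentile among all start-site peaks was 90.2, 85.1 and 73.4 in the same order. The width was 1859 bp, 2406 bp and 2595 bp, so that the widest peak was the one with the lowest ratio.

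*Srebf1* (chr11:60199089-60222581, minus strand) is known for alternative promoters that give SREBP-1a and SREBP-1c, and 2 start sites carried separate H3K27Ac peaks in all diets. At the start site 2.0 kb inside the gene record the peak also spanned the 5′ end of the record, and its ratio was 2.97 (2.68 to 3.27) on RD, 3.07 (2.81 to 3.35) on HFD and 3.11 (2.83 to 3.42) on HFD-O304. It was 2978 bp, 3257 bp and 3198 bp wide. At the internal start site, 12.1 kb into the gene, the ratio was 3.17 (2.81 to 3.56) on RD, 2.75 (2.54 to 2.98) on HFD and 2.98 (2.70 to 3.28) on HFD-O304. The internal peak measured 2001 bp on RD, 4330 bp on HFD and 3148 bp on HFD-O304. HFD thus had the widest internal peak and the lowest mean ratio there, and the mean is taken over the whole width. The stronger of the 2 peaks was the internal one in RD and the upstream one in HFD and HFD-O304, with intervals that overlapped in RD and in each of the other diets.

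Among the enzymes, *Fasn* (chr11:120805846-120824547, minus strand), fatty acid synthase, lay in 1 broad H3K27Ac peak that held its 3 start sites. The ratio was 3.64 (3.30 to 4.01) on RD, 3.87 (3.58 to 4.18) on HFD and 3.74 (3.42 to 4.08) on HFD-O304. The diets differed by less than the counting intervals. Its width was 2594 bp on RD, 3247 bp on HFD and 2940 bp on HFD-O304, at percentiles 95.97, 96.8 and 96.1 of all start-site peaks. By ratio the percentiles were lower, at 77.8, 79.8 and 73.2.

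*Acaca* (chr11:84129672-84401651, plus strand), the carboxylase found in the cytosol, has 5 start sites, and 3 of them had H3K27Ac in all diets. The 5′ start site shared its peak with the start of the neighbouring gene *Tada2a*, and the ratio there was 2.67 (2.18 to 3.24) on RD, 3.06 (2.59 to 3.58) on HFD and 3.32 (2.73 to 4.00) on HFD-O304. A peak around 2 neighbouring start sites 50.2 kb inside the gene had a ratio of 3.28 (2.85 to 3.75) on RD, 3.08 (2.67 to 3.54) on HFD and 3.71 (3.25 to 4.22) on HFD-O304. HFD-O304 had the highest value at both places and HFD the lowest at the internal one, with overlapping intervals. The start sites 43.4 kb and 65.8 kb inside the gene had no peak of either mark in any diet. The *Acaca* sequence printed above precedes the latter.

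*Acacb* (chr5:114146535-114250761, plus strand), the carboxylase of the mitochondrial outer membrane, whose malonyl-CoA restrains the entry of fatty acids into mitochondria, had no peak of either mark. This held for its 3 start sites and for the whole gene body of 104.2 kb in every diet. The nearest H3K27Ac peaks within 20 kb lay at the start sites of *Ung* and *Alkbh2* upstream, in all 3 diets. Their ratios were 2.80, 2.70 and 2.82 at *Ung* and 2.81, 3.23 and 2.996 at *Alkbh2* in RD, HFD and HFD-O304. Levels of the marks under the calling threshold cannot be seen at *Acacb*.

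*Scd2* (chr19:44293674-44306864, plus strand), a desaturase, was the gene whose H3K27Ac call differed between diets. No peak was called in RD. In HFD the ratio was 2.55 (2.21 to 2.92) over 1601 bp, beginning 80 bp downstream of the start site, and in HFD-O304 it was 2.61 (2.16 to 3.12) over 991 bp across the start site. Both peaks were weak, at percentiles 9.10 and 7.49 of their lists and with −log10 q values of 3.55 and 3.26, where 2 is the threshold of the lists. Both ratios lay above the lowest ratio called in RD, 2.40, and their lower interval bounds lay below it. A level under the threshold in RD cannot be seen in these lists. Among all genes 6.78% had a start-site peak in HFD and none in RD, and 6.45% had one in HFD-O304 and none in RD. The opposite was seen in 0.868% for RD without HFD and 1.12% for RD without HFD-O304. No gene of the 8 differed between HFD and HFD-O304, where 2.39% of all genes had a peak in HFD-O304 alone of the pair and 2.97% in HFD alone.

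*Scd1* (chr19:44394455-44407879, minus strand), another desaturase of the same gene cluster, had no H3K27Ac at its start sites in any diet and was the gene with H3K27Me3. In HFD the H3K27Me3 ratio was 3.18 (2.56 to 3.91) over 991 bp, and the peak reached to 946 bp from a start site, just inside the window. In HFD-O304 it was 3.09 (2.56 to 3.71) over 1235 bp that held both start sites. The 2 peaks did not overlap each other. With −log10 q values of 2.53 and 2.58 they were close to the threshold, and the HFD-O304 ratio lay below the lowest of the HFD list, 3.10. RD had no H3K27Me3 peak at *Scd1*, although the RD list reached lower ratios. Among all genes 3.08% had a start-site H3K27Me3 peak in HFD and none in RD, and 3.63% in HFD-O304 and none in RD. The reverse shares were 1.17% and 1.2%. Between HFD-O304 and HFD the shares were 1.96% for HFD-O304 alone and 1.43% for HFD alone, and none of the 8 genes was counted there.

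**Figure D2:**
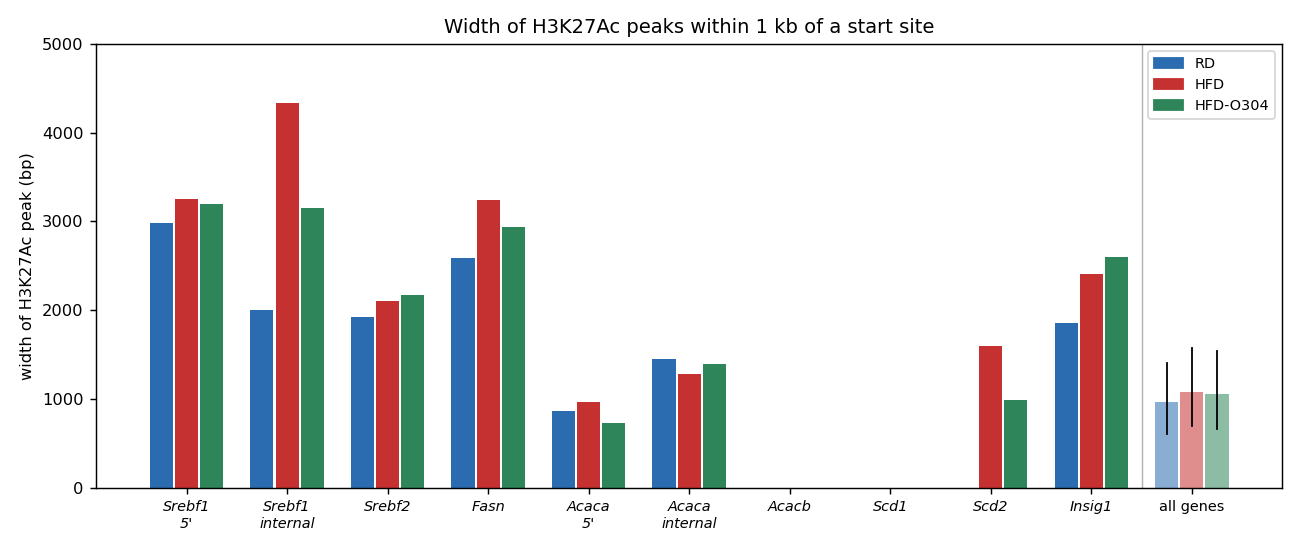
Width in bp (vertical axis) of H3K27Ac peaks within 1 kb of a start site, by gene and diet, with the median of all genes that had such a peak at the right and its lower to upper quartile as a black line. Most bars of the 8 genes stand above the medians of 962 bp to 1084 bp, the widest being the internal *Srebf1* peak in HFD at 4330 bp, and *Acacb* and *Scd1* have no bar.

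Taking the strongest start-site peak of each acetylated gene, the median ratio was 3.64 on RD (5 genes), 3.48 on HFD (6 genes) and 3.73 on HFD-O304 (6 genes). The medians of all genes with such a peak were 3.17, 3.27 and 3.31. The HFD and HFD-O304 medians of the 8 genes include the weak *Scd2* peak and the RD median does not. The median width was 1919 bp, 2256.5 bp and 2385.5 bp, where all genes had 962 bp, 1084 bp and 1059.5 bp. Genes without a peak have no value in these medians.

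Where the strongest peaks of a pair of diets overlapped, their ratios were divided. *Srebf1* has no such value against RD, since its strongest peak lay at another start site there. Start site by start site, HFD over RD was 0.87 at the internal *Srebf1* start and 1.03 at the upstream one, and HFD-O304 over RD was 0.94 and 1.05. HFD over RD gave a median of 1.04 over 4 genes (0.94 at *Acaca* to 1.07 at *Srebf2*), and 1.05 over 9900 genes of the genome. HFD-O304 over HFD gave 1.02 over 6 genes (0.93 at *Insig1* to 1.20 at *Acaca*), and 1.01 over 10726 genes. HFD-O304 over RD gave 1.07 over 4 genes (0.93 at *Insig1* to 1.13 at *Acaca*), and 1.06 over 9829 genes. None of these values passed 5/4 in either direction. For HFD over RD 6.86% of all genes lay above 5/4 and 0.606% below 4/5, for HFD-O304 over HFD 1.97% and 1.35%, and for HFD-O304 over RD 7.98% and 0.59%. The value of *Acaca* for HFD-O304 over HFD stood at percentile 95.2 of all genes. At the weaker 5′ start site of *Acaca*, HFD-O304 over HFD was 1.09 and HFD-O304 over RD was 1.24.

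**Figure D3:**
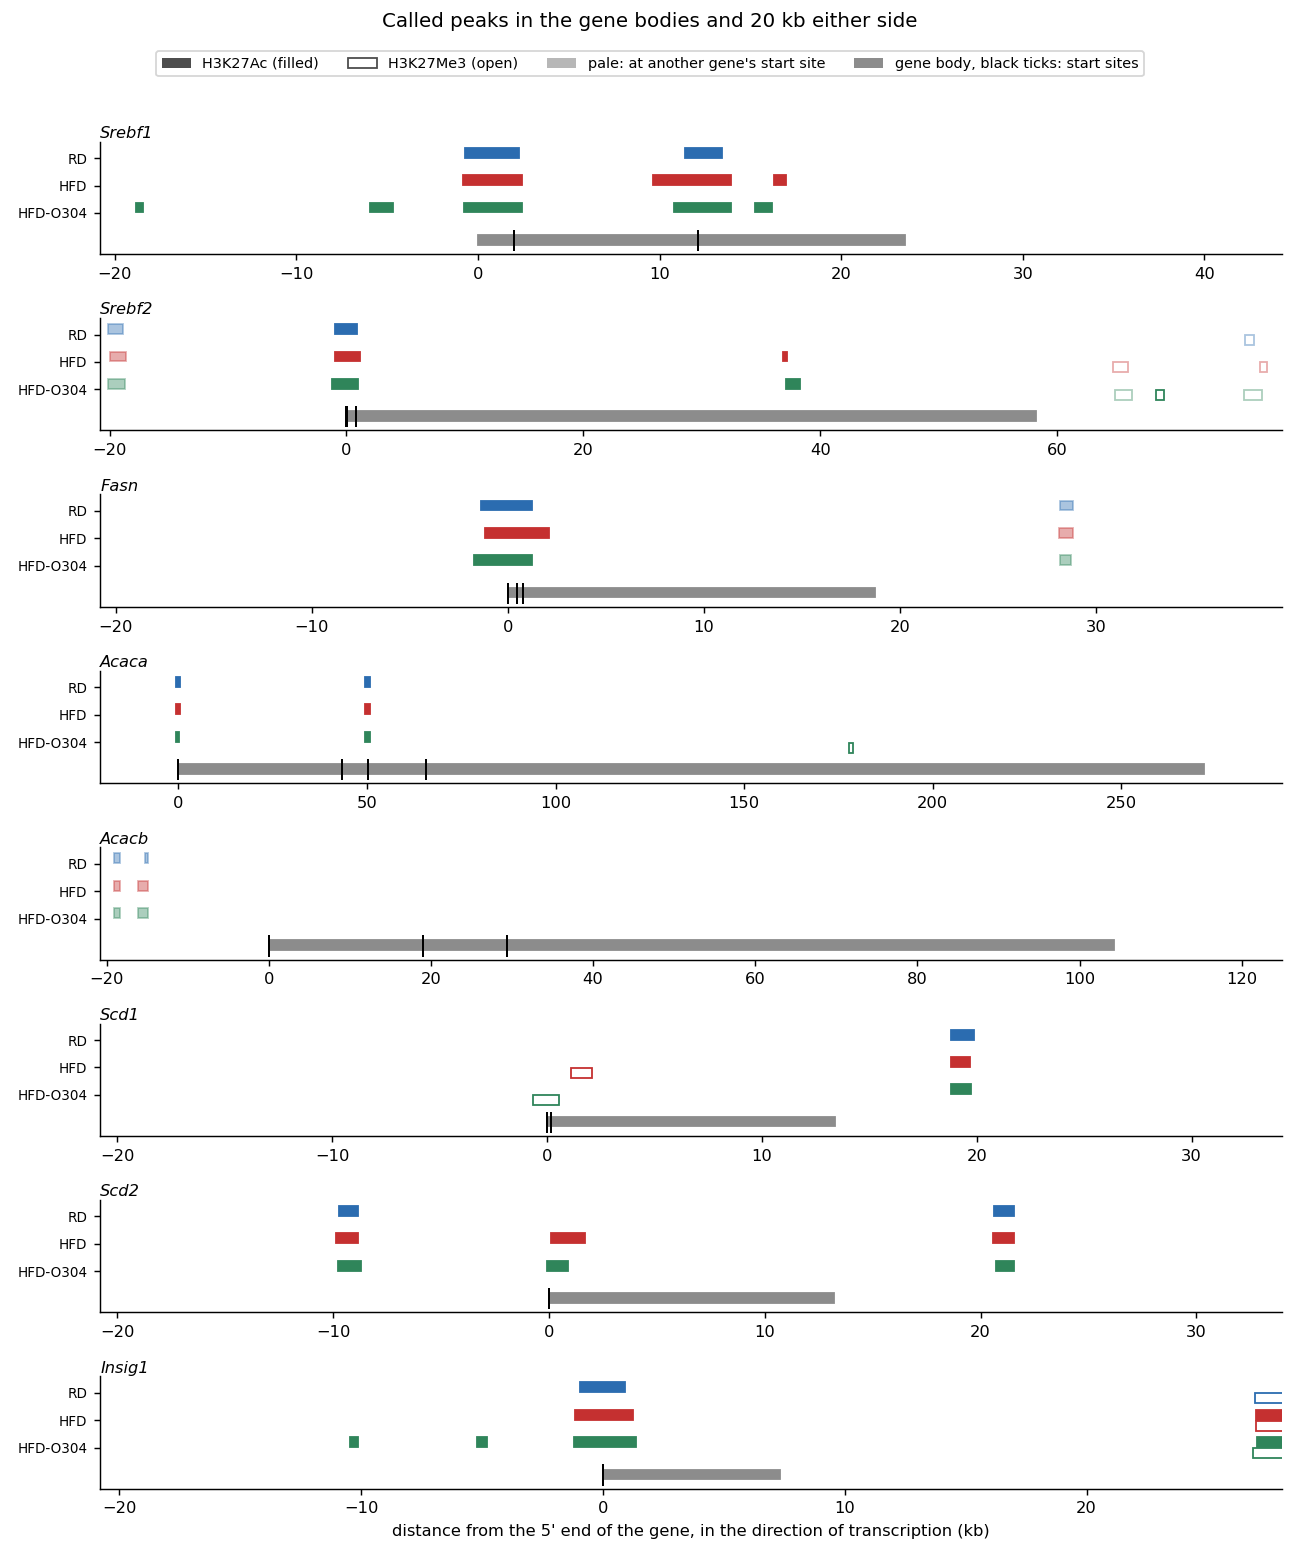
Peaks in each gene and 20 kb either side by distance from the 5′ end of the gene in kb (horizontal axis, scaled for each gene), with a row per diet, filled boxes for H3K27Ac, open boxes for H3K27Me3, pale boxes at the start sites of other genes, a grey bar for the gene body and black ticks for start sites. The start-site peaks line up over the diets at 5 genes, *Acacb* has an empty gene body, and the H3K27Ac peaks seen in a single diet lie away from start sites. Very narrow peaks are drawn at a minimum width.

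With start-site peaks included, the gene windows together held 14 H3K27Ac peaks on RD, 18 on HFD and 22 on HFD-O304, in 23 separate regions. Of these peaks 7, 8 and 8 lay at the genes' own start sites, and 4 in each diet at start sites of other genes. The whole lists held 16314, 21674 and 20305 H3K27Ac peaks. With lists of equal size, made by keeping the peaks with the highest −log10 q, the windows held 14, 16 and 18. At a fold cutoff common to the lists they held 14, 18 and 19. Of the 23 regions 14 were found in all 3 diets, 3 in 2 diets and 6 in a single diet. Across the genome 50.5% of 26001 H3K27Ac regions were found in all 3 diets and 31.8% in a single diet. The 11 regions away from any start site included 3 found in all diets, 2 in HFD and HFD-O304, and all 6 of the single-diet regions. The latter comprised 1 in HFD and 5 in HFD-O304, with the HFD region close beside 1 of the others at *Srebf1*, as described below. Away from start sites the genome held 14432 H3K27Ac regions, 28.2% of them in all diets and 49.3% in a single diet. By diet, 7.14% were in RD alone, 24.3% in HFD alone and 17.9% in HFD-O304 alone. No excess around the 8 genes was tested. The 6 single-diet regions around these genes were weak, with ratios of 2.37 to 2.61. Their widths were 354 bp to 1299 bp and their −log10 q values 2.12 to 3.27.

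The 3 regions away from start sites that recurred in every diet all belonged to the desaturases. Upstream of *Scd2*, centred about 9.3 kb before its start, the ratio was 2.80 on RD, 2.81 on HFD and 2.88 on HFD-O304. Downstream of *Scd2*, 7.9 kb beyond its 3′ end, it was 3.07, 3.48 and 2.78, and 5.9 kb beyond the 3′ end of *Scd1* it was 2.79, 3.10 and 3.39. Each of these was present in RD, the diet in which neither desaturase had H3K27Ac at a start site. The order of the diets differed from region to region. The desaturase cluster with *Scd3* and *Scd4* spans 204.6 kb and held 5 H3K27Ac peaks on RD, 6 on HFD and 6 on HFD-O304. Besides the *Scd2* start-site peak, none of them came within 1 kb of where a protein-coding gene starts.

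*Srebf1* held 2 H3K27Ac peaks on RD, 3 on HFD and 5 on HFD-O304, and 4 of the 6 single-diet regions lay around it. A peak over exons 16.6 kb into the gene was called in HFD at 2.43, and one 15.7 kb into the gene in HFD-O304 at 2.61. These 2 peaks did not overlap, but the gap between them, from 60206272 to 60206392, was shorter than 1 fragment (269 bp in HFD, 270 bp in HFD-O304). They count as 2 single-diet regions only because regions were joined where peaks overlapped. HFD-O304 had another at 5.3 kb and a further one at 18.6 kb upstream of *Srebf1*, with ratios of 2.39 and 2.37, both inside the neighbouring gene *Tom1l2*. Both of the latter were below the lowest ratio called in RD. *Insig1* had upstream peaks in HFD-O304 centred 10.3 kb and 5.0 kb before its start, with ratios of 2.39 and 2.55. The former of these was also below the lowest ratio called in RD. In an intron of *Srebf2*, about 37 kb from its start, a peak was called in HFD at 2.47 and in HFD-O304 at 2.62.

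At the downstream edge of the *Insig1* window, centred 20.2 kb to 20.3 kb beyond the 3′ end of the gene, a region made almost wholly of repeats (97.6% to 99.6% of its bases) gave the highest ratios around the 8 genes. H3K27Me3 was called there in all diets, at 10.5 on RD, 9.06 on HFD and 9.65 on HFD-O304. H3K27Ac was called at the same place at 6.73 in HFD and 6.89 in HFD-O304, and no peak was called in RD. The part of read mapping to repeats in these values was not tested. The other H3K27Me3 peaks lay around *Srebf2*, at the start sites of *Shisa8* (HFD and HFD-O304) and *Tnfrsf13c* (all diets) and once between genes (HFD-O304), and in an intron of *Acaca*, where a peak of 239 bp in HFD-O304 was wholly repeat-masked. In all, H3K27Me3 peaks in the windows numbered 2 on RD, 4 on HFD and 6 on HFD-O304, where the whole lists held 15517, 15438 and 22049. With lists of equal size they numbered 2, 4 and 3.

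Other genes of the pathway were counted from 3 lists with 50 genes in all. H3K27Ac was at a start site of 41 of them (82.0%) on RD, 44 (88.0%) on HFD and 44 (88.0%) on HFD-O304, with 40 genes marked in all diets. H3K27Me3 was at none of the 50 in any diet. The shares of all genes in RD, HFD and HFD-O304 were 47.0%, 52.9% and 52.3% for H3K27Ac. For H3K27Me3 they were 7.54%, 9.45% and 9.97%. No difference of the pathway lists from these shares was tested. Of 20 cholesterol synthesis genes 17, 17 and 18 had H3K27Ac in RD, HFD and HFD-O304, including in every diet *Hmgcs1*, *Sqle*, which encodes squalene epoxidase, and *Lss*, which encodes lanosterol synthase. Of 18 genes of fatty acid and triglyceride synthesis 14, 15 and 14 had it, among them *Acly*, which supplies acetyl-CoA, and *Elovl6*, an elongase. Of 12 regulators and targets 10, 12 and 12 had it, *Scap*, whose product escorts the SREBPs, and *Insig2* in all diets.

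**Figure D4:**
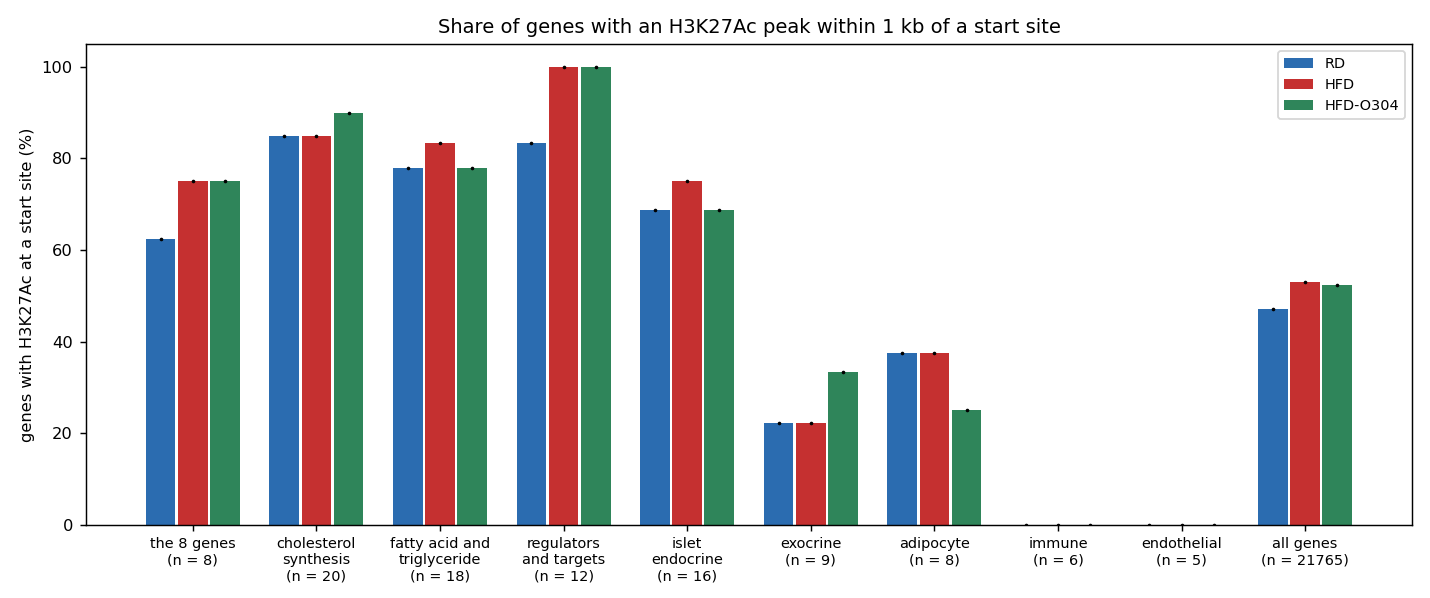
Percentage of genes with an H3K27Ac peak within 1 kb of a start site (vertical axis) in RD, HFD and HFD-O304 for the 8 genes, the 3 pathway lists, the cell type marker lists and all genes, with the number of genes under each name. The 3 pathway lists stand at 77.8% to 100.0%, all genes at 47.0% to 52.9%, and the immune and endothelial markers at 0.

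The call differed between diets at 5 of the 50 genes. Among all genes 6.78% had a peak in HFD and none in RD, and 0.868% the reverse. For HFD-O304 and RD these shares were 6.45% and 1.12%, and for HFD-O304 and HFD 2.39% and 2.97%. No difference from these shares was tested. *Fdps*, farnesyl diphosphate synthase, had a peak in HFD (2.32) and HFD-O304 (2.88) and none in RD, and so did *Mbtps2*, a protease that cleaves the SREBPs (2.57 and 2.66), and *Nr1h3*, which encodes the oxysterol receptor LXRα (2.56 and 2.45). *Mid1ip1*, whose product activates acetyl-CoA carboxylase, had one in HFD alone at 2.27, next to the lowest ratio of that list. *Msmo1*, methylsterol monooxygenase, had one in RD (3.13) and HFD-O304 (3.35) and none in HFD. The other direction of difference in the pair RD and HFD was thus seen once, at a ratio well above the lowest of the HFD list. H3K27Ac was absent in every diet at 5 genes, the cholesterol synthesis enzymes *Nsdhl* and *Ebp*, the desaturases *Scd3* and *Scd4*, and *Thrsp*. The genes *Nsdhl*, *Ebp*, *Mbtps2* and *Mid1ip1* lie on the X chromosome, where 7.52%, 13.7% and 12.7% of genes had H3K27Ac at a start site on the RD, HFD and HFD-O304 diets, while 49.2%, 55.1% and 54.6% of autosomal genes did. Of the 46 pathway genes on other chromosomes 41, 42 and 43 were marked. The part of the X chromosome in these calls was not tested.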

How the data were processed

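H3K27Ac and H3K27Me3 ChIP-seq of islets was analysed from 6 peak lists, 1 per mark and diet, grouped by the sample titles. According to the methods and the submitters' processing notes, the authors mapped paired-end reads with Bowtie2 to GRCm38 and merged the 2 replicates of each group. Broad peaks were called with MACS 2.1.2. Per the file headers, the q cutoff was 0.01, the effective genome was set to 1.87e+09 bases, repeated fragments counted as 1, the background was uniform and no control was given. The deposited pileup is a coverage signal, the mean number of fragments per base of the peak. The deposited −log10 q values were taken for filtering and description. In the fold that the authors deposited, a ratio, 1 is added to both pileup and background before division.

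The pileup was divided by the kept fragments times the fragment size over the effective genome size, which gave backgrounds of 12.1 to 13.7 fragments per base for H3K27Ac and 6.46 to 8.77 for H3K27Me3. Removed duplicates amounted to 17.2% to 18.4% in the H3K27Ac lists and to 45.7% to 56.9% in those of H3K27Me3. An overlap of 1 bp sufficed, and the strongest peak in the window represented a gene. Start sites were those of known transcripts of 21765 of 21938 protein-coding genes on chromosomes 1 to 19, X and Y. Exact Poisson intervals used the pileup times the width over the fragment size as the number of fragments. The search for overlaps was tested on simulated data. All 8 genes are named. Other pathway genes are named where a call differed between diets or H3K27Ac was absent in every diet, and otherwise as examples. Of 10 exocrine markers 9 were found in the annotation. The genes, lists and limits were chosen with earlier results of these data known. Python 3.11.15, pandas 2.3.3, numpy 2.4.6, scipy 1.17.1 and matplotlib 3.10.9 were used.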

Additional observations from a re-analysis of the deposited data

How the results depend on the processing

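With 42 results and 13 alternatives, 340 values were recomputed and 300 stayed within the limits set for them. Among 163 values of single genes 1 moved, *Acaca* in RD, at 2.67 when the 5′ end of the gene record alone was used. A gene whose peak was removed by an alternative gave no value, so such losses at *Scd2* and *Scd1* are not among the 163. Alternatives that filtered peaks could not change the ratio of a peak that they kept. No alternative changed the count of genes with H3K27Ac at a start site by over 1.5 times. A −log10 q of at least 5 removed the *Scd2* and *Scd1* start-site peaks. It left 0 genes whose H3K27Ac call differed between RD and HFD or between RD and HFD-O304, 0 genes with H3K27Me3 in HFD and in HFD-O304, 0 H3K27Me3 calls that differed between RD and either diet, and a median H3K27Ac ratio of 3.87 in HFD. H3K27Ac window peaks then numbered 9 on RD, 13 on HFD and 11 on HFD-O304, so that HFD and not HFD-O304 had the most, and H3K27Me3 window peaks 1, 1 and 2 in RD, HFD and HFD-O304. The H3K27Me3 peak at *Scd1* in HFD was not counted (0 genes) with an overlap of at least 200 bp, a window of 500 bp or the 5′ end of the gene record alone, so that 0 calls differed between RD and HFD and 1 between HFD and HFD-O304. The H3K27Me3 peak at *Scd1* in HFD-O304 was not counted (0 genes) with lists of equal size, where 1 call differed between HFD and HFD-O304, 0 between RD and HFD-O304, and 3 H3K27Me3 window peaks remained in HFD-O304. In the gene body alone the counts for RD, HFD and HFD-O304 were 7, 10 and 10 (H3K27Ac) and 0, 1 and 2 (H3K27Me3), and with 50 kb either side 4, 8 and 11 H3K27Me3 peaks. Without peaks at start sites of other genes, 9 H3K27Ac peaks in RD and 1 and 2 H3K27Me3 peaks in RD and HFD were left. In RD 1 H3K27Me3 peak was left at a common fold cutoff and 1 without repeat-masked peaks. Where its construction does not show it, the cause was not tested. The background implied by the deposited fold was an alternative added after seeing the data, and it moved no value beyond the limits. No paired analysis was possible because each list had been called on merged replicates, which also meant that none of them could be left out in turn. Levels below the lowest ratio called in a list cannot be seen at its depth.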
